A study of Homo sapiens with 42 samples.

Results

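The alpha-arrestins measured here were ARRDC1, ARRDC2, ARRDC3, ARRDC4 and TXNIP, 5 genes of the 50648 gene symbols shared by all 7 count tables. They were taken by symbol, and all 5 passed the filter on low counts in every line. These members were selected on their measured untreated levels and on their measured change with L-asparaginase. Their values are therefore given as a description, without p-values.

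The study profiled total RNA by sequencing in 7 human cell lines of acute lymphoblastic leukaemia, all kept in RPMI-1640 medium with serum and glutamine. Each line received 1 IU/ml L-asparaginase over 4 h or stayed untreated, and the 3 libraries of a group came from separate experiments (42 libraries in all). The drug is an enzyme that depletes extracellular asparagine and, more slowly, glutamine. Nalm6, SUPB15, RS411, REH and 697 are B-cell precursor lines and CEM and DND41 are T-cell lines, each grown as a culture of leukaemia cells alone, and the untreated group received no agent that the labels name. Libraries are named by the letter A, B or C of their column, or by the number 1 to 3 in the line 697. Values are CPM, the count of a gene relative to the TMM-scaled total of its library, scaled over all 42 libraries, and a gene was called when its adjusted p was under 0.05 in edgeR's quasi-likelihood test with Benjamini-Hochberg adjustment over all genes tested.

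Alpha-arrestins are adaptor proteins with an arrestin fold. ARRDC1 to ARRDC4 and TXNIP carry short proline-tyrosine motifs that dock ubiquitin ligases of the NEDD4 family, and through them they mark receptors and transporters for removal from the cell surface. TXNIP also binds and inhibits thioredoxin, and TXNIP and ARRDC4 both lower glucose uptake. In many cells the factor MondoA, encoded by MLXIP, and its partner MLX raise TXNIP and ARRDC4 through paired E-box-like stretches in their promoters, FOXO factors act on several stress genes through GTAAACA-type stretches, and glucocorticoids raise TXNIP in lymphoid cells.

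The promoters were read from the RefSeq-based table of 35116 windows (27305 genes, GRCh38.p14), each running from upstream of an annotated transcription start to shortly after it. All 5 members matched, with 8 windows. The motifs CACGTG (E-box), CCAAT (the CCAAT box), GTAAACA (a FOXO-type stretch) and TGATGNAA (an ATF4-type stretch) were searched on both strands. A pair of CACGNG stretches 5 bases apart was added after the sequences had been seen, and it can overlap an E-box. The following stretches are shown because they hold these matches in the genes whose level moved most, with the match in capitals and each strand read 5′ to 3′ along the gene.
TXNIP, paired E-box-like stretch, chr1:145996626-145996692, minus strand: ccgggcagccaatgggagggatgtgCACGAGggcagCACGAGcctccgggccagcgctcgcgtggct
TXNIP, FOXO-type stretch, chr1:145996677-145996723, minus strand: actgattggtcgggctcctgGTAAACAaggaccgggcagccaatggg
ARRDC4, E-box, chr15:97960468-97960523, plus strand: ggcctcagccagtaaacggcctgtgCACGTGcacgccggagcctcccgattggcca
ARRDC3, FOXO-type stretch, chr5:91380109-91380137, minus strand: agcccggcactTGTTTACcacggcgcggc

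None of these stretches overlapped an exon of its gene in GENCODE v29. The TXNIP pair lay at -88 to -72 from the start and the GTAAACA of TXNIP at -124 to -118. The ARRDC4 E-box lay at -210 to -205, and the ARRDC4 window held no paired stretch of the kind searched. In ARRDC3 the match was TGTTTAC, which is GTAAACA on the opposite strand, at -29 to -23 of the second of its windows. That window, chr5:91380048-91380347, belongs to a start inside the annotated span of the gene. The first ARRDC3 window, at the outer end of the span, held no GTAAACA. Of all windows, 7.26% held CACGTG, 3.42% held GTAAACA and 0.06% (20 windows) held the paired stretch. CCAAT was found in 1 window of each of the 5 members, with 3 matches in ARRDC4 and 2 in TXNIP, and 34.6% of all windows held it. No member window held TGATGNAA, which 3.62% of all windows held. These matches are letters in a window, and binding was not measured.

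In GRCh38 (GENCODE v29), ARRDC1 lies at chr9:137605654-137615360 on the plus strand, ARRDC2 at chr19:18001132-18014102 on the plus strand and ARRDC3 at chr5:91368724-91383359 on the minus strand. ARRDC4 lies at chr15:97960698-97973838 on the plus strand and TXNIP at chr1:145992435-145996600 on the minus strand. The authors counted against hg19, so these coordinates locate the genes and were not used for counting.

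Sequencing depth was 15.07 to 77.14 M counts per library, with a median of 40.28 M. B-lineage markers summed to between 918 and 1999 CPM in the B-precursor lines and 36.9 to 1064 CPM in the T-cell lines, and T-lineage markers to between 1638 and 2218 CPM in the T-cell lines and 6.23 to 141 CPM in the B-precursor lines. The high B-lineage sum came from CD79A in DND41 (622 to 1029 CPM in its 6 libraries), where PAX5 had 0 counts throughout. Myeloid and stromal marker sums reached at most 73.1 and 149.6 CPM in any library, and erythroid markers at most 0.066 CPM. Some of these sums moved with the drug. Stromal markers summed to 22.4 to 25.7 CPM in treated SUPB15 against 5.45 to 6.78 CPM in untreated SUPB15, and myeloid markers to 21.2 to 24.1 CPM in treated RS411 against 8.53 to 14.6 CPM in untreated RS411. CSF1R was called higher in SUPB15, RS411 and REH and PDGFRB in Nalm6, SUPB15, REH and DND41, while S100A8 had 0 counts in every group and DCN in every group but untreated REH. The part of these markers in the results was not tested. As a check of the drug, the stress genes SESN2, TRIB3, DDIT3 and CHAC1, 4 of the 7 listed, rose in the mean of the lines by log2 values of 2.59, 2.37, 2.28 and 2.10, and all 7 passed upward there. By line, 3 of the 7 passed in 697 and in DND41 and 5 to 7 in the other lines, none downward. The TRIB3 mean includes 6.23 ± 1.02 in 697, where CHAC1 (-0.09 ± 0.71) was not called. Treated libraries SUPB15 C, REH A and RS411 B held 99, 19 and 3 genes at 1 CPM or more that had at most 3 counts over the rest of their line, and no member was among them.

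The first untreated library (A, or 1 in 697) of Nalm6, SUPB15, RS411, 697 and DND41 stood apart from its group. The deviations of these 5 libraries from their group means correlated with one another across 8511 genes, with a median r of 0.71 between libraries, although they come from different lines. ARRDC1, ARRDC2 and TXNIP were below their group mean in all 5, by an average of 1.12, 0.52 and 0.86 log2 units, and ARRDC3 was above it in all 5, by 0.49. ARRDC4 was below it in 4 of the 5. Single-line differences without the first untreated library are given beside the results or together after them. The first library also had the lowest TXNIP of its group in 13 of the 14 groups and the lowest ARRDC4 and ARRDC2 in 12 of 14 each. This held in treated groups too, with TXNIP lowest there in 6 of 7, ARRDC4 in 7 of 7 and ARRDC2 in 5 of 7.

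**Figure D1:**
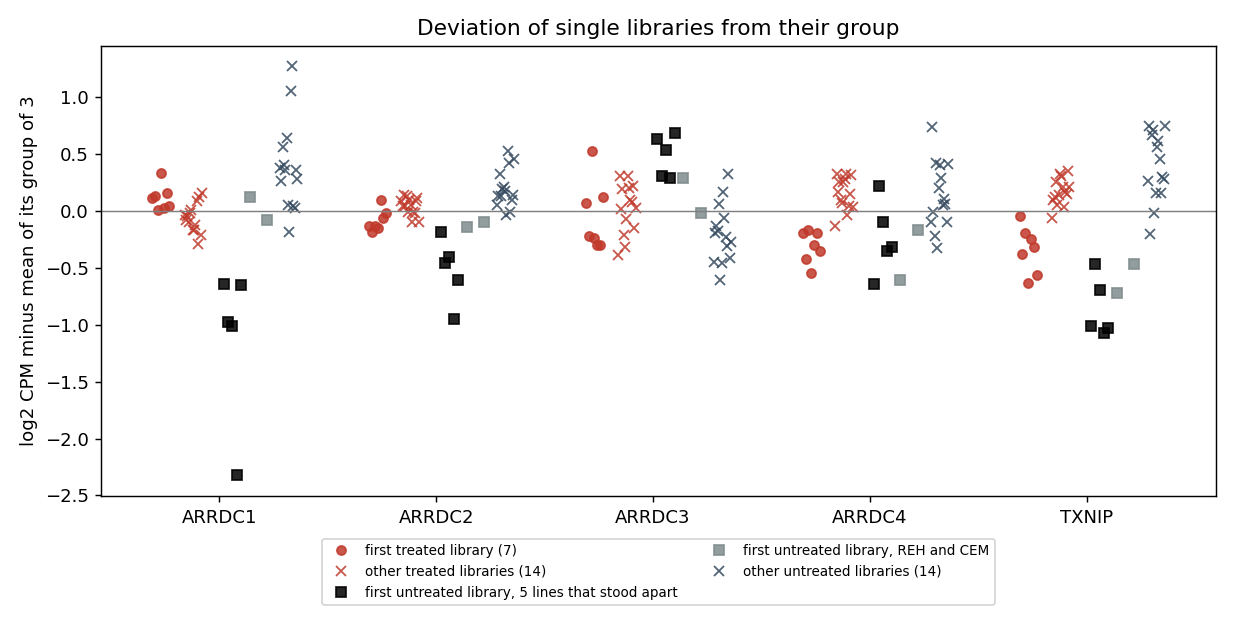
Deviation of each library's log2 CPM (vertical axis) from the mean of its group of 3, by gene, for first and other libraries of L-asparaginase-treated and untreated groups. The 5 untreated libraries that stood apart (black squares) lie below 0 for ARRDC1, ARRDC2 and TXNIP, by an average of 1.12, 0.52 and 0.86, and above 0 for ARRDC3, by 0.49.

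Without the drug, TXNIP was the most abundant of the 5 per kilobase of exon in every line, with 20.3 (RS411) to 81.9 (REH) CPM per kb. ARRDC2 came next in the 4 lines Nalm6, SUPB15, RS411 and REH (15.0 to 33.4 CPM per kb), ARRDC4 in 697 and DND41 (17.3 and 9.81), and ARRDC1 in CEM (6.19). The lowest were ARRDC4 in SUPB15 and CEM (0.443 and 0.677 CPM per kb) and ARRDC3 in RS411 (0.719). The genes thus kept no single order below TXNIP. Exon lengths were taken from GENCODE v29 in GRCh38, whereas the authors counted against hg19 with an annotation that is not given. The means include the 5 untreated libraries that stood apart. Close ranks may depend on both, as in CEM, where ARRDC3 had 5.41 CPM per kb beside 6.19 for ARRDC1.

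**Figure D2:**
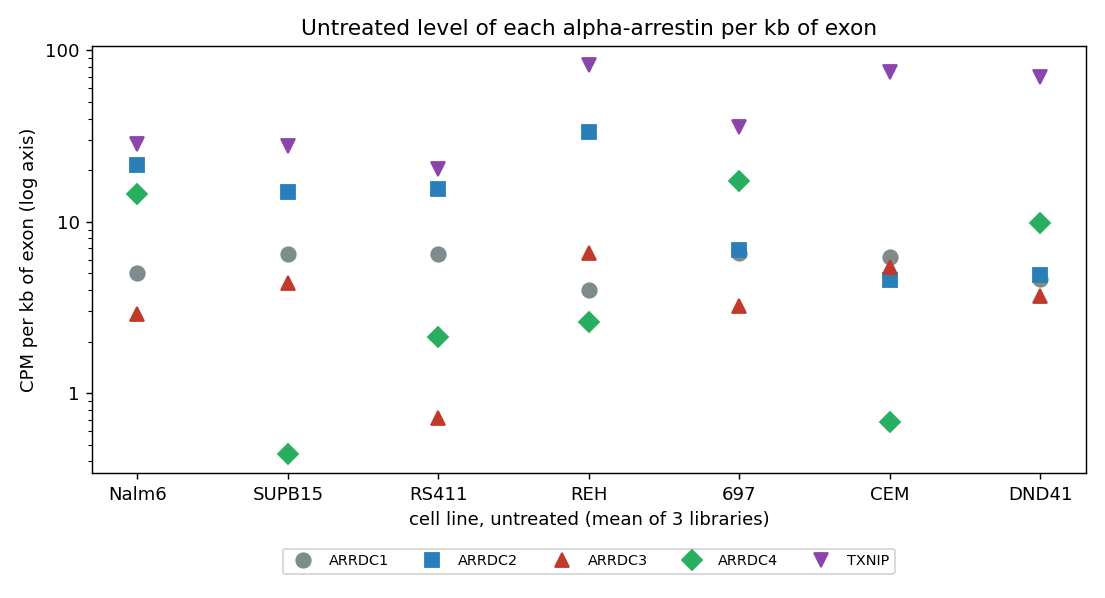
Untreated level of each alpha-arrestin (vertical log axis, CPM per kb of exon, mean of 3 libraries) in the 7 lines. TXNIP lies highest in every line, and ARRDC4 spans 0.443 in SUPB15 to 17.3 in 697.

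ARRDC4 differed most between untreated lines, by 39-fold from 697 to SUPB15 in mean CPM. The order was 697 (70.3 ± 15.2 CPM, SD, n = 3 as for all groups here), Nalm6 (59.1 ± 28.9), DND41 (40.0 ± 10.8), REH (10.5 ± 3.50), RS411 (8.63 ± 2.41), CEM (2.76 ± 0.279) and SUPB15 (1.80 ± 0.282). Neighbours in this order overlapped except at 3 steps, between DND41 and REH, between RS411 and CEM, and between CEM and SUPB15. Without the 5 untreated libraries the order and these steps held, and the span was 47-fold. ARRDC3 spanned 9.1-fold, from REH (27.5 ± 7.04 CPM) to RS411 (3.01 ± 1.16), in the order REH, CEM, SUPB15, DND41, 697, Nalm6, RS411, and only the last step was free of overlap (without the 5 libraries 697 came before DND41, 4 steps were free and the span was 11-fold). Untreated ARRDC2 spanned 7.3-fold and was highest in REH (98.5 ± 11.1 CPM), then Nalm6 (63.4 ± 7.06), RS411 (46.0 ± 10.4), SUPB15 (44.0 ± 11.5), 697 (20.3 ± 9.36), DND41 (14.3 ± 4.98) and CEM (13.4 ± 0.917). Here the steps after REH, Nalm6 and SUPB15 were free of overlap, so that both T-cell lines and 697 lay below the other lines, also without the 5 libraries.

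TXNIP spanned 4-fold, with REH (263 ± 107 CPM), CEM (241 ± 62.9) and DND41 (226 ± 120.5) above 697 (115 ± 58.0), Nalm6 (91.1 ± 48.1), SUPB15 (88.8 ± 38.8) and RS411 (65.3 ± 31.2). Every neighbouring pair of lines overlapped. With the 5 libraries left out, DND41 led (290.0 CPM), before REH (263) and CEM (241), and 697 (148), Nalm6 (117), SUPB15 (103) and RS411 (79.3) followed, with gaps between CEM and 697 and between 697 and Nalm6. ARRDC1 spanned least, 1.6-fold from 697 (10.4 ± 7.97 CPM) to REH (6.38 ± 0.693), with overlap at every step. This rested on the 5 libraries: without them 697 averaged 14.9 CPM and the span was 2.3-fold, still the least of the 5 genes. The steps after SUPB15, Nalm6 and DND41 were then free of overlap, in the order 697, RS411, SUPB15, CEM, Nalm6, DND41, REH.

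L-asparaginase left the 5 genes with different patterns over the lines. ARRDC3 was called higher in 5 lines and lower in none. TXNIP was called higher in 4 lines and lower in none. ARRDC4 was called higher in 3 lines and lower in 1, ARRDC2 lower in 3 and ARRDC1 lower in 1. The same values had chosen the genes, so a call of a member only places its value against the threshold and is not support for a response. For this reason the differences between lines were not tested either. How many of all genes had groups without overlap was not counted, so a lack of overlap in a member is likewise a description.

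**Figure D3:**
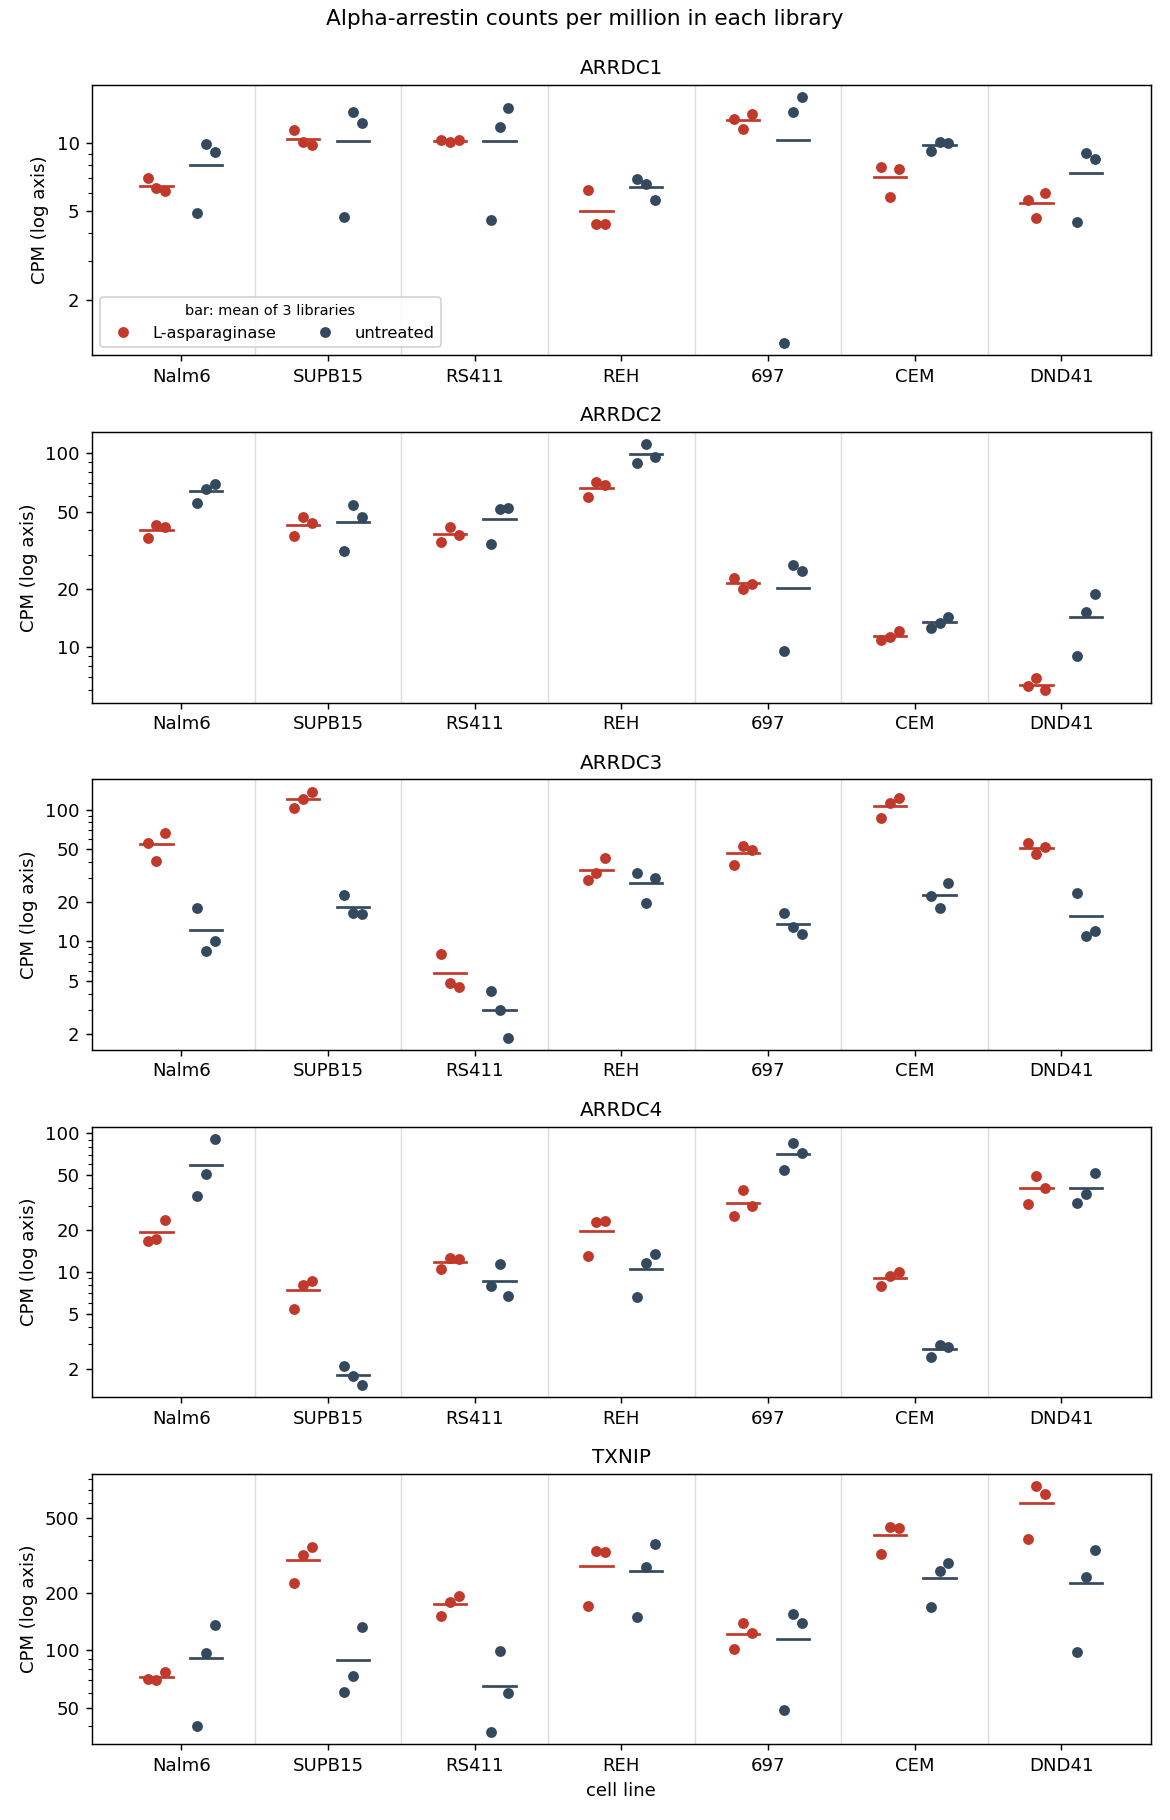
CPM (vertical log axes) of the 5 alpha-arrestins in every library, with L-asparaginase-treated libraries (red) left of untreated libraries (dark) in each line and a bar at each mean of 3. Treated libraries lie above all untreated libraries for ARRDC3 in every line but REH, and for ARRDC4 they lie above in SUPB15 and CEM and below in Nalm6 and 697.

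ARRDC3 is an adaptor reported to act on the beta-adrenergic receptor and on integrin beta 4. In SUPB15 it had 102, 121 and 137 CPM with L-asparaginase, against 22.3, 16.5 and 16.0 CPM untreated. In CEM it had 85.5, 111 and 122 CPM with L-asparaginase, against 22.1, 18.0 and 27.9 CPM untreated. In Nalm6 the values were 56.1, 41.0 and 66.4 CPM with the drug, against 17.9, 8.42 and 10.1 CPM without it. The treated libraries lay above all untreated ones in each of these 3 lines. ARRDC3 rose there by log2 values of 2.69 ± 0.18 (SE), 2.24 ± 0.16 and 2.20 ± 0.28, or 6.46-fold, 4.73-fold and 4.59-fold.

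Treated 697 libraries had 37.8, 53.3 and 49.6 CPM of ARRDC3, against 16.3, 12.8 and 11.4 CPM in untreated libraries. Treated DND41 libraries had 55.9, 46.0 and 52.2 CPM, against 23.4, 10.96 and 12.04 CPM in untreated ones. Neither line showed overlap. ARRDC3 rose in 697 by 1.78 ± 0.24 and in DND41 by 1.75 ± 0.28. In 697 the call was lost without any single library but untreated 1 (1.65 to 1.98 over all alternatives, the highest without untreated 1, where it was called). In DND41 the value was 2.21 without untreated A.

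RS411 had the lowest ARRDC3, with 8.05, 4.803 and 4.48 CPM in treated libraries, against 4.18, 3.00 and 1.86 CPM in untreated libraries. The groups did not overlap, but the difference of 0.96 ± 0.35 was not called. It was called without untreated A (1.29), without the filter on low counts and by DESeq2. In REH the values were 29.3, 32.8 and 42.7 CPM with L-asparaginase, against 32.9, 19.6 and 30.1 CPM untreated. These groups overlapped, and the difference of 0.38 ± 0.19 was not called. REH is a line where libraries of the same letter deviated together, and with the letter as a block the value was 0.42 and was called. It was also called without untreated A (0.55) and without the filter on low counts (0.37). In the mean of the 7 lines ARRDC3 rose by 1.71 ± 0.11, and by 1.93 when the 5 untreated libraries set apart were left out.

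ARRDC4, the closest relative of TXNIP among these genes in its link to glucose uptake, went in both directions. SUPB15 had 5.37, 8.09 and 8.65 CPM with L-asparaginase, against 2.10, 1.78 and 1.53 CPM untreated. CEM had 7.87, 9.26 and 9.94 CPM with L-asparaginase, against 2.44, 2.97 and 2.86 CPM untreated. Both were lines with little ARRDC4 before treatment, and in both every treated library lay above every untreated one. ARRDC4 rose by 2.02 ± 0.24 in SUPB15 (4.05-fold) and by 1.72 ± 0.15 in CEM (3.28-fold).

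Nalm6 and 697, the lines with the most ARRDC4 before treatment, moved the other way. DND41, the next line in that order, differed by only 0.04 ± 0.21. The untreated level is also part of the fold change, and a link between level and change was not tested. Nalm6 had 16.7, 17.4 and 23.9 CPM with L-asparaginase, against 35.1, 51.0 and 91.1 CPM untreated. Its groups did not overlap, and ARRDC4 fell to 2.97-fold lower (log2 fold change -1.57 ± 0.28). The line 697 had 25.1, 38.7 and 30.1 CPM with L-asparaginase, against 54.4, 84.6 and 72.0 CPM untreated. Its groups did not overlap either, but the difference of -1.17 ± 0.24 was not called. It was called without untreated 1 (-1.31), without the filter and by DESeq2.

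The other 3 lines showed overlap. REH had 13.1, 22.8 and 23.2 CPM of ARRDC4 with L-asparaginase, against 6.62, 11.6 and 13.4 CPM untreated. Only the treated library A reached into the untreated range. ARRDC4 rose in REH by 0.95 ± 0.25. Letters were taken as pairs in REH, and within the pairs A, B and C the treated over untreated ratio was 1.97, 1.97 and 1.73. The unpaired call was lost without treated B or C. RS411 had 10.4, 12.6 and 12.3 CPM with L-asparaginase, against 7.87, 11.3 and 6.70 CPM untreated, a difference of 0.46 ± 0.20 that was not called. DND41 had 31.0, 49.3 and 40.6 CPM with L-asparaginase, against 31.3, 36.5 and 52.1 CPM untreated, a difference of 0.04 ± 0.21 that was not called. In the mean of the lines ARRDC4 rose by 0.33 ± 0.11, a call that was lost without SUPB15 (0.06), REH (0.24) or CEM (0.11), and the value was 0.67 without Nalm6 and 0.59 without 697. It averages lines that moved in opposite directions.

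**Figure D4:**
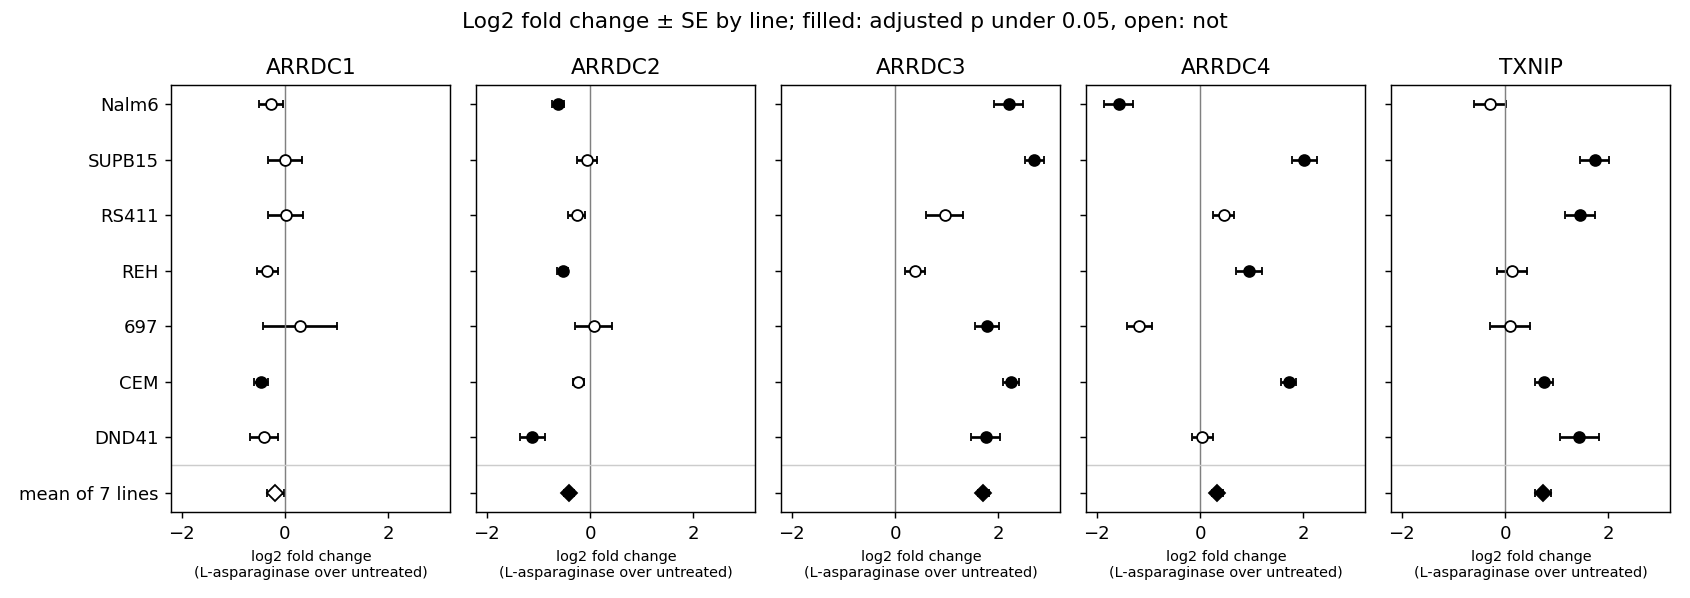
Log2 fold change of each alpha-arrestin (horizontal axis, L-asparaginase over untreated, bars ± SE) in each line and in the mean of the 7 lines; filled symbols have an adjusted p under 0.05 (edgeR) and open symbols do not. ARRDC3 lies above 0 in every line (0.38 to 2.69), and ARRDC4 runs between -1.57 in Nalm6 and 2.02 in SUPB15. The filling is a description, since this contrast had chosen the genes.

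TXNIP, the thioredoxin-interacting protein, was called in 4 lines. In SUPB15 it had 226.5, 320 and 351 CPM with L-asparaginase, against 60.5, 72.9 and 133 CPM untreated. In RS411 it had 152.5, 181 and 193 CPM with L-asparaginase, against 37.2, 98.8 and 59.8 CPM untreated. The treated libraries of both lines lay above all untreated ones. TXNIP rose by 1.73 ± 0.29 in SUPB15 (3.32-fold) and by 1.45 ± 0.29 in RS411 (2.72-fold). The RS411 call was lost without any 1 of the treated libraries A, B and C or without untreated C, with values of 1.18 to 1.85 over all fits that left out 1 library or changed a setting.

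Both T-cell lines also had more TXNIP. CEM had 321, 449 and 444 CPM with L-asparaginase, against 170.1, 263 and 290 CPM untreated. DND41 had 388.5, 735 and 667 CPM with L-asparaginase, against 97.8, 243 and 337 CPM untreated. No treated library reached down to an untreated one. TXNIP rose by 0.76 ± 0.18 in CEM (1.69-fold) and by 1.44 ± 0.38 in DND41 (2.71-fold). The DND41 call was lost without treated B or C or untreated B, and its value was 1.09 without untreated A.

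In the remaining lines TXNIP was not called. REH had 172, 335 and 332 CPM with L-asparaginase, against 150.2, 275 and 364 CPM untreated (0.13 ± 0.29). The line 697 had 102, 140.3 and 124 CPM with L-asparaginase, against 48.4, 156 and 140.1 CPM untreated (0.10 ± 0.39). Nalm6 had 70.4, 69.5 and 77.4 CPM with L-asparaginase, against 40.1, 97.5 and 136 CPM untreated (-0.29 ± 0.31). In all 3 the treated libraries lay inside the untreated range or overlapped it. Without untreated A the Nalm6 value was -0.63 and was called, and without untreated 1 the 697 value was -0.26 and was not. In the mean of the lines TXNIP rose by 0.74 ± 0.16, and by 0.53 when those 5 untreated libraries were left out.

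ARRDC2, which is less studied than the other members, was called lower in 3 lines. REH had 59.7, 70.9 and 68.8 CPM with L-asparaginase, against 89.1, 111 and 95.5 CPM untreated. Nalm6 had 36.6, 42.7 and 41.5 CPM with L-asparaginase, against 55.6, 65.5 and 69.2 CPM untreated. DND41 had 6.34, 6.95 and 6.002 CPM with L-asparaginase, against 8.98, 15.1 and 18.8 CPM untreated. All treated libraries lay below all untreated ones in these lines. ARRDC2 fell by 0.53 ± 0.11 on the log2 scale in REH, by 0.62 ± 0.11 in Nalm6 and by 1.12 ± 0.24 in DND41.

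In CEM the ARRDC2 groups did not overlap (10.9, 11.3 and 12.1 CPM with L-asparaginase, against 12.6, 13.4 and 14.4 CPM untreated), but the difference of -0.22 ± 0.10 was not called. The differences of -0.06 ± 0.19 in SUPB15, -0.26 ± 0.16 in RS411 and 0.07 ± 0.36 in 697 were not called, and the groups overlapped. The RS411 value was -0.41 and was called without untreated A, and the 697 value was -0.25 without untreated 1. In the mean of the lines ARRDC2 fell by 0.41 ± 0.089, and by 0.54 without the 5 untreated libraries.

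ARRDC1, which recruits vesicle-budding machinery to the plasma membrane, was called in CEM alone among the 7 lines. It had 7.83, 5.74 and 7.67 CPM there with L-asparaginase, against 9.29, 10.2 and 10.0 CPM untreated, without overlap. ARRDC1 fell in CEM by 0.46 ± 0.14, a call lost without treated B or untreated B. In the other lines the groups overlapped, and differences ran between -0.41 ± 0.26 in DND41 and 0.29 ± 0.72 in 697. The 697 spread came from untreated 1, with 1.29 CPM beside 13.8 and 16.1 CPM in the other untreated libraries and 12.9, 11.6 and 13.5 CPM in treated ones. Without it the 697 value was -0.23. The value was -0.51 in Nalm6 and -0.65 in DND41 without untreated A, and both were then called. The mean of the lines was -0.19 ± 0.17 and not called, and without the 5 untreated libraries it was -0.42 and was called.

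The other single-line differences without the first untreated library were as follows. ARRDC3 differed by 2.61 in Nalm6 and 2.91 in SUPB15, and TXNIP by 1.57 in SUPB15 and 1.18 in RS411, all still called. ARRDC4 differed by -1.82 in Nalm6 and 2.19 in SUPB15, both still called, and by 0.42 in RS411 and -0.09 in DND41, neither called. ARRDC2 differed by -0.69 in Nalm6 and -1.35 in DND41, both still called, and by -0.21 in SUPB15, not called. ARRDC1 differed by -0.28 in SUPB15 and -0.32 in RS411, neither called. The mean of the lines for ARRDC4 was 0.28 without the 5 libraries and was called.

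Counts of called members stand beside the background of each comparison and were not read as results, since this contrast had chosen the genes. In Nalm6 3 of 5 members were called, 1 higher and 2 lower, where 20.8% of 14952 genes were called, 8.96% higher and 11.8% lower. In SUPB15 3 were called, all higher, against 26.1% of 15121 genes, 12.9% higher and 13.2% lower. RS411 had 1 member called, higher, against 12.8% of 16345 genes, 7.58% higher and 5.19% lower. REH had 2 members called, 1 each way, against 26.5% of 15549 genes, 13.2% higher and 13.3% lower.

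In 697, 1 member was called higher, against 2.4% of 15306 genes, 1.55% higher and 0.849% lower. In CEM 4 were called, 3 higher and 1 lower, against 36.7% of 16080 genes, 19% higher and 17.7% lower. In DND41 3 were called, 2 higher and 1 lower, against 26.9% of 14951 genes, 15.1% higher and 11.8% lower. In the mean of the 7 lines 4 of 5 were called, 3 higher and 1 lower, against 37.4% of 20983 genes, 17.8% higher and 19.6% lower. The median log2 fold change of the members was 0.33 in the mean of the lines, beside -0.015 for all genes, a value that TMM scaling holds near 0. Reads come from bulk RNA, where fewer cells with a transcript and less of it per cell cannot be told apart.

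Other arrestin-fold genes had 7 of 8 listed members measured, of which 1 was called higher and 2 lower in the mean of the lines (median -0.07), against 17.8% and 19.6% of all genes. ARRB1, the beta-arrestin that ends signalling of G-protein-coupled receptors, fell by 0.75 ± 0.071 in the mean of the lines. It fell in the 5 lines Nalm6, SUPB15, RS411, REH and CEM, most in RS411, where it had 4.99, 5.11 and 4.62 CPM with L-asparaginase, against 11.5, 14.1 and 14.03 CPM untreated (-1.42 ± 0.15). ARRB2, its close relative, had a mean difference of 0.01 ± 0.049 that was not called. The retromer subunit gene VPS26B fell by 0.30 ± 0.062, and DSCR3, a related subunit gene, rose by 0.16 ± 0.054 and was called in no single line.

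ARRDC5, the remaining human alpha-arrestin, was scarce. Its values rest on 15 to 238 counts per library in Nalm6, 12 to 92 in REH and 6 to 20 in 697. It had 0.562, 0.636 and 0.607 CPM in treated Nalm6 libraries, against 1.42, 2.75 and 3.26 CPM in untreated ones, and fell by 2.01 ± 0.32. In REH it had 0.792, 0.826 and 0.882 CPM with L-asparaginase, against 1.91, 1.60 and 1.96 CPM untreated, and fell by 1.09 ± 0.27. It was not called in 697 (-1.34 ± 0.39) and did not pass the filter in SUPB15, RS411, CEM or DND41, where all 6 DND41 libraries had 0 counts.

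The antisense gene ARRDC3-AS1 rose in the mean of the lines by 0.66 ± 0.13 and was called in no single line. In Nalm6 it had 2.74, 2.20 and 2.29 CPM with L-asparaginase, against 2.04, 1.56 and 1.47 CPM untreated. It had 9 to 117 counts per library over all lines. Its exons share no base with those of ARRDC3. ARRDC1-AS1 was not called in the mean (0.21 ± 0.098), and its exons share 27 bases with the 1586 exon bases of ARRDC1. Both results were read from GENCODE v29 in GRCh38, whereas the authors counted against hg19 with an annotation that is not given. The spans of ARRDC3 and ARRDC3-AS1 overlap on opposite strands, and no source used here states whether counting used the strand. Whether reads of a gene were counted for its antisense gene was not tested.

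Genes around the alpha-arrestins were described in the mean of the 7 lines by lists assembled with earlier results of these data known. Of 5 measured glucose-sensing factors and their targets, 1 rose and 4 fell (median -0.57), against 17.8% and 19.6% of all genes. MLX, the binding partner of MondoA, rose by 0.36 ± 0.059. The hexokinase gene HK2 fell by 0.71 ± 0.078, the repressor KLF10 by 0.58 ± 0.14 and the glycolysis regulator PFKFB3 by 0.57 ± 0.084. MLXIP, named here after its value was seen because only 4 genes fell, did so by 0.20 ± 0.070. KLF10 went both ways between lines, with 61.6 ± 10.8 CPM in treated CEM against 29.4 ± 6.49 CPM in untreated CEM (SD, n = 3 each), a rise, and 12.9 ± 2.81 CPM in treated Nalm6 against 64.3 ± 25.4 CPM in untreated Nalm6, a fall.

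Reported cargo and vesicle partners had 12 measured members, 3 higher and 6 lower (median -0.17), against 17.8% and 19.6% of all genes. The glucose transporter gene SLC2A1, whose product TXNIP helps to internalise, fell by 0.77 ± 0.11. A second glucose transporter gene, SLC2A3, rose by 0.72 ± 0.081, most in 697 (2.75), with 63.5 ± 6.74 CPM in treated 697 against 9.33 ± 0.582 CPM in untreated 697. It also rose in SUPB15 (0.88) and RS411 (1.04) and was not called in Nalm6 (-0.11), REH (-0.24), CEM (0.05) or DND41 (0.74). The insulin receptor gene INSR fell by 0.75 ± 0.059 and the insulin-responsive glucose transporter gene SLC2A4 by 1.56 ± 0.31. By line SLC2A4 ran between -2.18 in RS411 and 0.31 in SUPB15. It was not called in Nalm6, SUPB15 or 697, and its groups overlapped in CEM and DND41, where it was called lower.

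Ligases of the NEDD4 family and their adaptors had 11 measured members, 3 higher and 3 lower (median 0.12), against 17.8% and 19.6% of all genes. The 6 of 11 called stand beside 37.4% of all genes. NEDD4L, which ubiquitinates sodium channels among other targets, fell by 1.03 ± 0.072 and was called lower in all 7 lines. SMURF1, a ligase of the TGF-beta pathway, fell by 0.81 ± 0.064, and WWP1 by 0.24 ± 0.061 in the mean, without a call in any single line. HECW2 rose by 1.17 ± 0.21 but was scarce, with treated means of 0.115 (Nalm6) to 1.52 CPM (697), against untreated means of 0.0482 (Nalm6) to 1.25 CPM (697).

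The thioredoxin system had 13 measured members, 2 higher and 2 lower (median -0.02), against 17.8% and 19.6% of all genes, a share in all near that background. TXN, which TXNIP inhibits, fell by 0.24 ± 0.069, and the peroxiredoxin gene PRDX6 by 0.52 ± 0.063. By line TXN was called lower in CEM (-0.46) and DND41 (-0.43) alone, and was above 0 in Nalm6 (0.26) and 697 (0.10). PRDX6 was called lower in SUPB15 (-0.79), REH (-0.33), CEM (-0.44) and most in DND41 (-1.55). It was not called in Nalm6 (-0.06), RS411 (-0.47) or 697 (0.085). The mitochondrial genes TXNRD2 and TXN2 rose by 0.34 ± 0.094 and 0.21 ± 0.051, and by line both were called in DND41 alone. With the 5 untreated libraries left out, 6 members of this list were lower. The share of all genes called lower in that fit is not given here, so this count was not read as a result about the list.

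FOXO factors and responsive genes had 10 measured members, 6 higher and 1 lower (median 0.35), against 17.8% and 19.6% of all genes. CCNG2, a cyclin of cell cycle arrest, rose by 0.64 ± 0.090, PIK3IP1, a PI3K inhibitor, by 0.51 ± 0.17, the repressor BCL6 by 0.47 ± 0.091 and SESN1 by 0.42 ± 0.080. CCNG2 was called in 697 (2.65) and REH (0.66) alone. PIK3IP1 was called in Nalm6 alone (1.71, with 1.08 ± 0.162 CPM treated and 0.311 ± 0.277 CPM untreated). BCL6 was called higher in Nalm6, RS411, CEM and DND41, and SESN1 in Nalm6, REH and 697. KLF2, named here after its values were seen, was called lower in Nalm6 (-2.75) and REH (-2.43). Its mean difference of -0.64 ± 5.01 was not called. Of 7 measured glucocorticoid-responsive genes 1 rose and 2 fell (median -0.05), against 17.8% and 19.6% of all genes, again near the background. TSC22D3, encoding the leucine zipper protein GILZ, rose by 1.16 ± 0.19. It was called in SUPB15 (1.59), RS411 (1.34) and CEM (1.84) and not in Nalm6 (0.48), REH (0.58), 697 (1.81) or DND41 (0.63). In the mean BCL2L11, encoding the BIM killer protein, fell by 0.35 ± 0.069 and the phosphatase gene DUSP1 by 0.31 ± 0.092. DUSP1 went both ways, lower in Nalm6 (-1.06), SUPB15 (-0.87) and CEM (-0.94) and higher in DND41 (0.99 ± 0.28), and BCL2L11 was called in no single line.

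The genes most like each member were ranked by Pearson correlation of log2 CPM over the 42 libraries after the mean of each line had been subtracted, among 9901 genes. These libraries share their lines, depths and the 5 untreated libraries that stood apart, so the correlations describe these libraries. ARRDC1 was most like MFSD10 (r = 0.97), NUDT22 (0.97) and SLC4A2 (0.96), and ARRDC2 most like GRAMD4 (0.91), VAT1 (0.90) and KLHDC3 (0.90). ARRDC3 was nearest to PTCD2 (0.93), ITFG2 (0.90) and RRP8 (0.89), and TXNIP to C2orf47 (0.91), HSCB (0.89) and GCC1 (0.88). ARRDC4 had lower highest values, with PIP5K1A (0.75), ZBTB18 (0.73) and C18orf8 (0.72). Between the members themselves, r was 0.71 for ARRDC1 with ARRDC2, 0.61 for ARRDC4 with TXNIP, 0.45 for ARRDC3 with TXNIP, 0.22 for ARRDC3 with ARRDC4 and -0.5 for ARRDC2 with ARRDC3. Many other genes were nearer to most members. Among the 9901 genes, ARRDC2 ranked 1129 for ARRDC1, and ARRDC1 ranked 481 for ARRDC2. TXNIP ranked 63 for ARRDC4, but ARRDC4 ranked 1092 for TXNIP. For ARRDC3 with TXNIP the ranks were 2014 and 2412.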

How the data were processed

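The deposited values are raw counts of reads for each gene symbol, with a separate table for every line, and the authors left them unnormalized, as whole numbers with unequal library totals show. The submitters' processing notes name the hg19 build. For the aligner, the counting tool, the annotation and the use of strand, the entry is: not given in the sources used here. The 7 tables were joined by symbol. Columns of 697 carry replicate numbers, and those of the other lines letters that no label mentions.

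Each line's 6 libraries were tested with edgeR 4.0.16 (R 4.3.3; TMM, filterByExpr with a minimum count of 10, glmQLFit, glmQLFTest). A second model over 42 libraries gave the mean of the 7 within-line differences. Log2 CPM used a prior count of 2. The models were also run on simulated counts with the same fixed spread for every gene and no library set apart. Those runs do not cover first untreated libraries like the ones seen here, and no result was drawn from them. Alternatives were size factors of the RLE kind, no filter, the replicate as a block, DESeq2 1.42.0 and leaving out libraries or lines. Libraries of a group differed beyond sampling noise (lowest chi-square 15.0 per degree of freedom over 42 pairs), so none was counted as a copy.

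Replicate pairing was checked by correlating deviations of same-letter libraries. The lowest correlation was above 0.1 in SUPB15 (0.15), REH (0.33), CEM (0.17) and DND41 (0.35), where the letters were taken as pairs. It was not above 0.1 in Nalm6 (0.05), RS411 (0.10) or 697 (-0.07). In DND41 libraries of different letters also correlated by up to 0.28. The fits reported used no replicate block in any line, so they do not use these pairs, and the block was an alternative only.

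The named genes were the 5 members, ARRDC5, ARRB1, ARRB2 and 2 antisense genes, up to 4 called genes per list with the largest mean change, and the 3 genes most like each member. MLXIP and KLF2 were added after their values had been seen. Members, lists and the 5 untreated libraries set apart were chosen with earlier results of these data known. Members had 40 counts or more in every library, whereas ARRDC5 and the antisense gene ARRDC3-AS1 had far fewer, so counting error adds to their spread. Protein sequences were not analysed here.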

Additional observations from a re-analysis of the deposited data

Results flagged for a closer look

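ARRDC4 went in opposite directions between lines, with every treated library on 1 side of every untreated library in 4 of them. Its log2 fold change was 2.02 in SUPB15 and 1.72 in CEM, where all treated libraries lay above all untreated ones, and -1.57 in Nalm6 and -1.17 in 697, where all treated libraries lay below. The difference between these lines was not tested, and the value in 697 was not called in its own line. How many of all genes had groups without overlap was not counted, and these values had chosen the gene, so the separation is a description.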

How the results depend on the processing

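Over 350 refits of single lines (5 members, 7 lines, 10 settings each), 349 member values moved by less than 1 SD between replicate libraries, 1 moved by more (ARRDC3 in DND41, 2.21 without untreated A) and no called value changed sign. All 60 refits of the mean stayed within 1 SD of single libraries, a wide limit: the ARRDC4 call was lost in 3 of them and an ARRDC1 call was gained without the 5 untreated libraries. The number of members called was 2 in RS411 without the filter, with the replicate block and by DESeq2, against 1 in the fit reported, and in 697 it was 2 without the filter, 0 with the replicate block and 2 by DESeq2, against 1. The pairing does not hold in RS411 or 697, where the replicate block is a number shared only in name. In REH 3 members were called without the filter, against 2. Genes called in REH were 6683 with the block, against 4120, and in 697 they were 16 with the block and 1659 by DESeq2, against 367. Among the paired lines the block changed 1 member call, that of ARRDC3 in REH. With 1 library left out, the number of members called ran over 3 to 5 (Nalm6), 0 to 3 (RS411), 1 to 3 (REH), 0 to 2 (697), 2 to 4 (DND41) and 3 to 4 (CEM) and was 3 throughout in SUPB15, and the number of genes called ran over 1683 to 3743 (Nalm6), 1716 to 6328 (SUPB15), 272 to 4517 (RS411), 2429 to 4560 (REH), 5 to 3664 (697) and 1848 to 5311 (DND41). Without the 5 untreated libraries that stood apart, 6 genes of the thioredoxin system were lower, against 2, and 5 of the NEDD4 family list higher, against 3. The share of all genes called in that fit is not given beside these counts, so they were not read as results about the lists. The cause of the change was not tested. With 3 libraries per group and a first untreated library apart in 5 lines, calls near the threshold depend on single libraries, most of all in 697 and RS411.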

Other observations

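Ratios between libraries of the same letter or number showed how much some results rest on the first pair. These values were picked after they had been seen, and the letters were not taken as pairs in Nalm6, RS411 or 697. The treated over untreated ratio of TXNIP in Nalm6 was 1.76 for A, 0.71 for B and 0.57 for C, and in 697 it was 2.12 for 1, 0.9 for 2 and 0.89 for 3. That of ARRDC1 was above 1 in the first pair of the 5 lines whose first untreated library stood apart, from 1.25 in DND41 to 10.04 in 697, and below 1 in all 14 other pairs and in the first pairs of REH and CEM. The ARRDC4 ratio in CEM was 3.22, 3.12 and 3.47, and in 697 it was 0.46, 0.46 and 0.42.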
